A study of Mus musculus with 16 samples.

Results

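The acyl-CoA thioesterases were examined as 7 genes, Acot1, Acot2, Acot7, Acot8, Acot9, Acot11 and Acot13, taken by their symbols from both deposited count tables of mouse hearts. They are 7 of the 19654 gene symbols that the 2 tables list between them, each table holds all 7, and all 7 passed the filter on low counts in each table. Acyl-CoA thioesterases split a fatty acyl-CoA into a free fatty acid and coenzyme A. They thereby act against the acyl-CoA synthetases, and each works in its own compartment: Acot1 and Acot7 in the cytosol, Acot2, Acot9 and Acot13 at or in mitochondria, and Acot8 in peroxisomes. Acot11 carries a lipid-binding START domain and is best known from brown fat. In the heart, whose main fuel is fatty acid, release of coenzyme A from long-chain acyl-CoA in the matrix is the textbook role of Acot2, and both Acot1 and Acot2 are known targets of the fatty acid sensor PPAR-alpha.

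The study asked how mitophagy bears on hearts with defective fatty acid oxidation. RNA was measured in 4 groups of hearts: CPT2H-KO (n = 5) and wild type (n = 5) in one table, CPT2/USP30 double KO (n = 3) and CPT2 single KO (n = 3) in the other. CPT2H-KO mice lack, in cardiomyocytes, the carnitine palmitoyltransferase that regenerates acyl-CoA inside mitochondria, and the CPT2 single KO libraries carry the same CPT2H-KO genotype label. The double KO hearts lack CPT2 too and additionally USP30, a deubiquitinase of the mitochondrial outer membrane that restrains mitophagy. Myh6-Cre with a floxed USP30 allele is named for the USP30 deletion, while the driver for CPT2, the deleted exons, ages and sexes are, in the sources used here, not given. Both groups of the second table therefore share the CPT2 deletion, and no wild type hearts were analysed beside them. The RNA came from whole cardiac tissue, so fewer cells of a type and less RNA per cell cannot be told apart.

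The libraries held 54674422 to 131049342 counts in CPT2H-KO and 55905339 to 132762776 in wild type hearts, and 11779115 to 12734379 in double KO and 11067969 to 13532716 in single KO hearts. Mitochondrially encoded transcripts took 61.9 to 68.8% of counts in CPT2H-KO and 57.9 to 63.0% in wild type libraries. In the second table no row carried a symbol with the mitochondrial prefix mt-, so no such share is given there. Levels are compared only within a table. Cpt2 itself was lower in CPT2H-KO hearts, at 40.4 ± 5.72 CPM (counts scaled to the library total times its TMM factor; mean ± SD, n = 5), against 77.9 ± 15.2 CPM in wild type hearts (log2 fold change −0.95, adjusted p = 9.71e-04, edgeR's quasi-likelihood test with Benjamini-Hochberg adjustment, used throughout). Usp30 had 7.45 to 10.4 CPM in double KO and 18.5 to 22.8 CPM in single KO hearts, groups that did not overlap. Its log2 fold change of −1.16 did not pass in edgeR's test (adjusted p = 0.147), but passed by DESeq2 (adjusted p = 2.39e-04) and in edgeR without double KO replicate 1 (adjusted p = 0.0218). The atrial transcript Myl7 varied widely: 0.285 to 144 CPM in CPT2H-KO, 25.4 to 194 CPM in wild type, 1.49 to 425 CPM in double KO and 0.0749 to 0.458 CPM in single KO libraries. Y-linked transcripts stood at background in 2 of 5 CPT2H-KO, 1 of 5 wild type, 3 of 3 double KO and 1 of 3 single KO libraries, so in the second table this background moved with genotype. Summed markers of cardiomyocytes, all 8 of which were measured, ran from 20563 to 25512 CPM in CPT2H-KO and from 27304 to 29774 CPM in wild type hearts, and 6 of the 8 were called lower, as were 17% of all genes tested. Summed fibroblast markers ran from 1092 to 2072 CPM in CPT2H-KO and from 726 to 1145 CPM in wild type hearts, with 4 of 8 called higher, beside 16.7% of all genes, and none at 0. The part of these differences in the results below was not tested.

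Acot1 and Acot2 are neighbours on chromosome 12 and near-copies of each other, which limits how well reads can be assigned. In the GRCm38 assembly Acot2 spans chr12:83987861-83993873 and Acot1 spans chr12:84009490-84018371, both on the plus strand with 3 coding exons each. Their coding sequences of 1359 bases (Acot2) and 1257 bases (Acot1) align over 1236 bases with 58 differences, an identity of 95.3%. Of all 50-base windows of the Acot1 transcript, 23.7% also occur in Acot2, and at 100 bases 16.5% do. The following stretch shows where reads can be told apart: it is the 120-base coding window with the most differences, 14, and lies in exon 3 (chr12:84016886-84017005 in Acot1, chr12:83992608-83992727 in Acot2). Capitals mark the bases that differ.
Acot1: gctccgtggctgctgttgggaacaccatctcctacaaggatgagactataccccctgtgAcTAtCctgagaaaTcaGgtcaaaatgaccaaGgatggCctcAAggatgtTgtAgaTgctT
Acot2: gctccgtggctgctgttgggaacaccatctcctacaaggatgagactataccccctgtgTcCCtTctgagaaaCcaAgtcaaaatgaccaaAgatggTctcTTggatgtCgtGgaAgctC
Other stretches are identical. The next window, spliced from exons 1 and 2 and shown because no read inside it can be assigned to either gene, runs over coding bases 397 to 516 of Acot1 and 520 to 639 of Acot2 and has 0 differences.
Acot1 and Acot2: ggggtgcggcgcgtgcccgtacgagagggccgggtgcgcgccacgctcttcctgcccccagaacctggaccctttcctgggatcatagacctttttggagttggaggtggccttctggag
Acot2 alone has a further 123 coding bases upstream of the point where the Acot1 coding sequence begins (chr12:83987902-83988024, exon 1). They are shown because they set the genes apart at their 5′ ends, and the amino end of Acot2 is where its mitochondrial leader lies.
Acot2: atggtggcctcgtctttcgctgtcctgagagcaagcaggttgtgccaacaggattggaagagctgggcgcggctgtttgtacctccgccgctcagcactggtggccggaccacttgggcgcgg
The remaining members are spread over the genome and have no near-copy among the 7. Acot13 lies at chr13:24817948-24831540 on the minus strand, Acot7 at chr4:152178134-152271855 on the plus strand and Acot9 at chrX:155262443-155297654 on the plus strand. Acot11 (chr4:106744555-106804998, minus strand) overlaps Fam151a and Gm12745, and Acot8 (chr2:164792765-164804882, minus strand) overlaps Snx21, each on the opposite strand. Acot7 overlaps Gm27500 on the opposite strand and Gm13096 on its own strand. The sources used here do not say whether counting used strand. Acot9 shares 97.2% of its coding bases with Acot10, so its reads may also be exchanged. Of the windows of the Acot9 transcript, 20.2% occur in Acot10 at 50 bases and 0.968% at 100 bases. At 100 bases the overlap is thus far smaller than that of Acot1 with Acot2.

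In CPT2H-KO hearts the mitochondrial Acot2 and the cytosolic Acot1 rose, by 2.71-fold and 2.41-fold, while the other 5 members did not pass the test in either direction. Of the 7 members 2 were thus called, both higher, a share close to the background, since 33.7% of the 14123 genes tested were called, 16.7% higher and 17% lower, and 44.5% had an unadjusted p under 0.05. The size of the change was less common: 337 genes, 2.39% of those tested, were called with a log2 fold change at least that of Acot1.

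Acot2 had 125, 77.6, 82.3, 80.2 and 111 CPM in CPT2H-KO replicates 1 to 5, against 41.6, 40.9, 36.4, 27.6 and 29.2 CPM in wild type replicates 1 to 5. Every CPT2H-KO heart lay above every wild type heart, and replicates 1 and 5 were the highest. The means were 95.2 ± 21.4 CPM in CPT2H-KO and 35.2 ± 6.49 CPM in wild type hearts (SD, n = 5 each), a log2 fold change of 1.44 with a standard error (SE) of 0.17 and an adjusted p of 1.59e-04 in edgeR's quasi-likelihood test.

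Acot1 had 10.2, 6.90, 9.30, 10.7 and 14.2 CPM in the CPT2H-KO replicates, against 5.58, 5.01, 4.11, 3.73 and 2.84 CPM in the wild type replicates. Here too the groups did not overlap, as was so for 24.7% of all genes tested, and the lowest CPT2H-KO heart was replicate 2. The means were 10.3 ± 2.63 CPM in CPT2H-KO and 4.26 ± 1.08 CPM in wild type hearts (SD, n = 5 each), which put the log2 fold change at 1.27 with an SE of 0.21 (adjusted p = 0.00116 in edgeR's quasi-likelihood test). The CPM rest on 417 to 1646 counts in CPT2H-KO and 172 to 594 counts in wild type libraries.

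Because reads of these near-copies may be exchanged, their counts were also added into one row. That row gave a log2 fold change of 1.42 with an adjusted p of 1.67e-04 (edgeR's quasi-likelihood test). Acot1 took 9.80 ± 1.87% of the joint counts in CPT2H-KO and 10.7 ± 1.27% in wild type hearts (SD, n = 5 each). The difference of −0.93 percentage points was smaller in size than either SD, and ran from −1.43 to −0.37 with 1 library left out. A two-sided exact permutation test of the difference in mean share over samples gave p = 0.357, where the smallest possible p is 0.00794. How many Acot1 counts come from Acot2 RNA was not tested.

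The 2 CPT2H-KO hearts with the most Acot2, replicates 1 and 5, were also the 2 with Myl7 above 1 CPM, at 14.1 and 144 CPM, whereas replicates 2 to 4 had 0.285 to 0.610 CPM. Every wild type heart had Myl7, at 25.4 to 194 CPM, so leaving out replicates 1 and 5 ended the overlap of Myl7 between the groups. Without both replicates, the log2 fold changes were 1.19 for Acot2 (adjusted p = 2.26e-04) and 1.07 for Acot1 (adjusted p = 0.00350, edgeR's quasi-likelihood test). In the 3 CPT2H-KO and 4 wild type libraries with Y-linked transcripts they were 1.42 for Acot2 (adjusted p = 0.00118) and 1.43 for Acot1 (adjusted p = 0.00576). Both left-out sets were chosen after seeing the data.

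**Figure D1:**
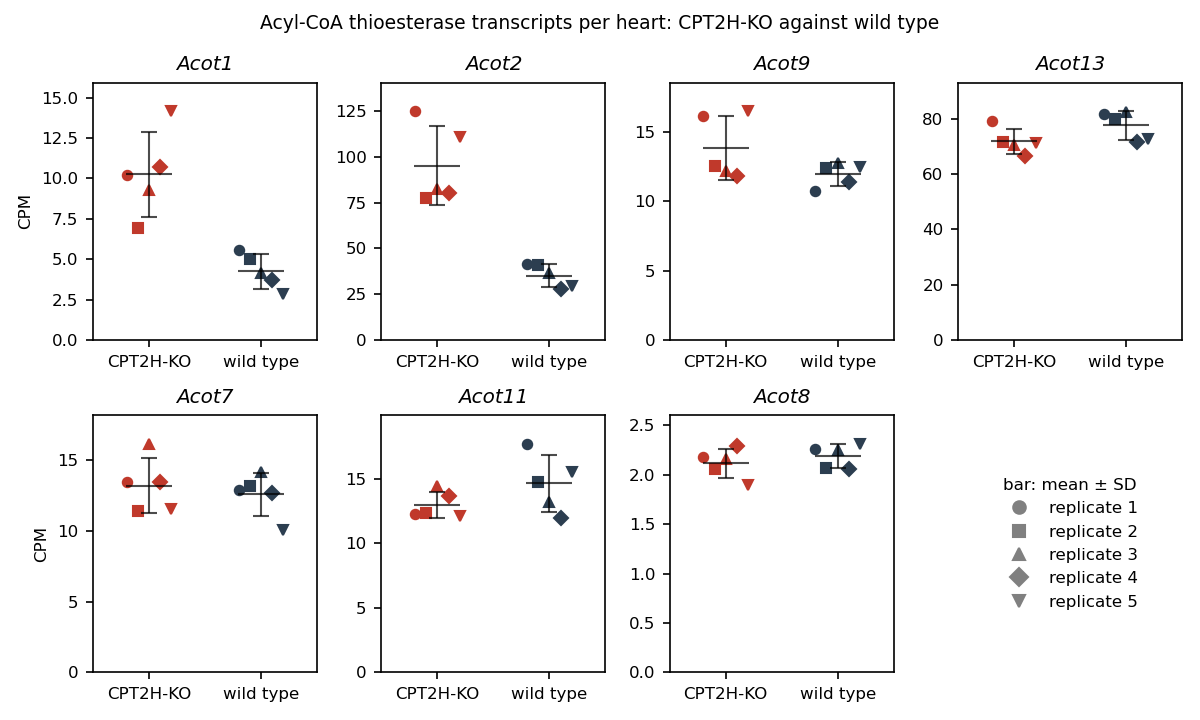
CPM of each member in each heart of the first table, with CPT2H-KO on the left and wild type on the right of every panel; symbols stand for replicates, horizontal bars for means and whiskers for SD (n = 5 each). The groups separate for Acot1 and Acot2, whose means are 10.3 against 4.26 and 95.2 against 35.2 CPM, and overlap in the other 5 panels.

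In the other members the CPT2H-KO and wild type hearts overlapped. Acot13, a small hotdog-fold thioesterase associated with mitochondria, had 79.1, 71.7, 70.5, 66.5 and 71.2 CPM in CPT2H-KO hearts, against 81.7, 79.8, 82.3, 71.4 and 72.7 CPM in wild type hearts. Its groups overlapped and its log2 fold change was −0.11 (95% interval −0.26 to 0.04, adjusted p = 0.226, edgeR's quasi-likelihood test). Acot9, a mitochondrial enzyme of short- and medium-chain acyl-CoA, had 16.1, 12.6, 12.2, 11.8 and 16.5 CPM in CPT2H-KO hearts, against 10.8, 12.4, 12.8, 11.4 and 12.5 CPM in wild type hearts. CPT2H-KO replicates 1 and 5 exceeded all wild type hearts and the other 3 did not. The log2 fold change of Acot9 was 0.21 (95% interval −0.03 to 0.45, adjusted p = 0.155).

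Acot7, a cytosolic enzyme abundant in brain, had 11.4 to 16.2 CPM in CPT2H-KO and 10.1 to 14.2 CPM in wild type hearts, with medians of 13.5 and 12.9 CPM. Acot11 had 12.1 to 14.4 CPM in CPT2H-KO and 11.9 to 17.7 CPM in wild type hearts. The peroxisomal Acot8 had the lowest mean CPM of the members, undivided by length, at 1.89 to 2.29 CPM in CPT2H-KO and 2.06 to 2.31 CPM in wild type hearts. All 3 overlapped between the groups. Their log2 fold changes were 0.07 for Acot7 (95% interval −0.18 to 0.32), −0.17 for Acot11 (−0.40 to 0.06) and −0.05 for Acot8 (−0.27 to 0.17), with adjusted p of 0.682, 0.222 and 0.721 in edgeR's quasi-likelihood test. These values depend on the scaling. With library totals alone, which moves the median of all genes tested to −0.27 instead of −0.01, Acot11 at −0.43 (adjusted p = 0.0137) and Acot13 at −0.37 (adjusted p = 0.00886) were called lower, and Acot7 and Acot9 turned to −0.20 and −0.06. That scaling called 827 genes higher and 4832 lower, against 2360 higher and 2398 lower in the fit reported here.

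**Figure D2:**
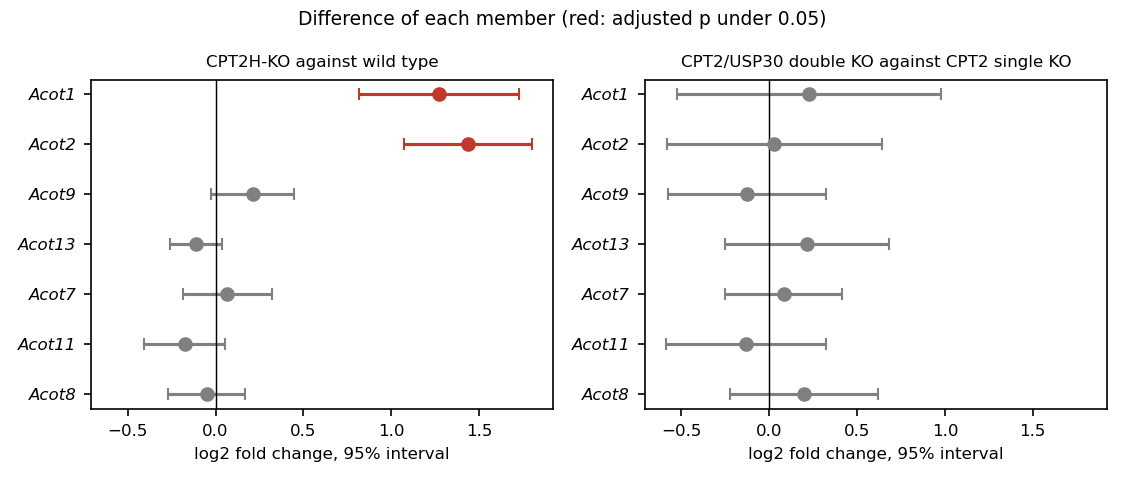
Log2 fold change of each member with its 95% interval, for CPT2H-KO against wild type on the left and double KO against single KO on the right; red points have an adjusted p under 0.05. Acot1 at 1.27 and Acot2 at 1.44 are the called members on the left, and every interval on the right includes 0.

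Read per length, the change in Acot2 altered the makeup of the family. CPM were divided by the length of all annotated exons merged, which can exceed any single transcript, by an amount that may differ between genes. This length is 3919 bases for Acot1 and 2196 bases for Acot2, so the order of members may depend on it. Acot13 was the most abundant member at 96.5 ± 6.12 CPM per kb in CPT2H-KO and 104 ± 6.95 CPM per kb in wild type hearts, followed by Acot2 at 43.3 ± 9.75 and 16.0 ± 2.96 CPM per kb (SD, n = 5 each). Acot7 and Acot9 came next in both groups, with overlapping ranges of 5.20 to 7.62 CPM per kb in CPT2H-KO and 4.74 to 6.67 CPM per kb in wild type hearts. At the low end, Acot1 and Acot11 overlapped in CPT2H-KO hearts (1.76 to 3.62 CPM per kb) above Acot8. In wild type hearts Acot11 stood above Acot8 and Acot1, which overlapped at 0.725 to 1.43 CPM per kb.

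Of the summed CPM per kb of the 7 members, Acot2 made up 27.2 ± 3.40% in CPT2H-KO and 11.7 ± 1.36% in wild type hearts, and Acot13 made up 61.3 ± 3.18% in CPT2H-KO and 76.7 ± 1.10% in wild type hearts. The ratio of Acot2 to Acot13 per kb was 0.535, 0.366, 0.396, 0.408 and 0.527 in CPT2H-KO replicates 1 to 5, against 0.172, 0.174, 0.150, 0.131 and 0.136 in wild type replicates 1 to 5. The ranges lay well apart, and being a ratio within a library it does not depend on the scaling between libraries. The sum itself overlapped, with 143.5 to 182 CPM per kb in CPT2H-KO and 123 to 145 CPM per kb in wild type hearts.

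**Figure D3:**
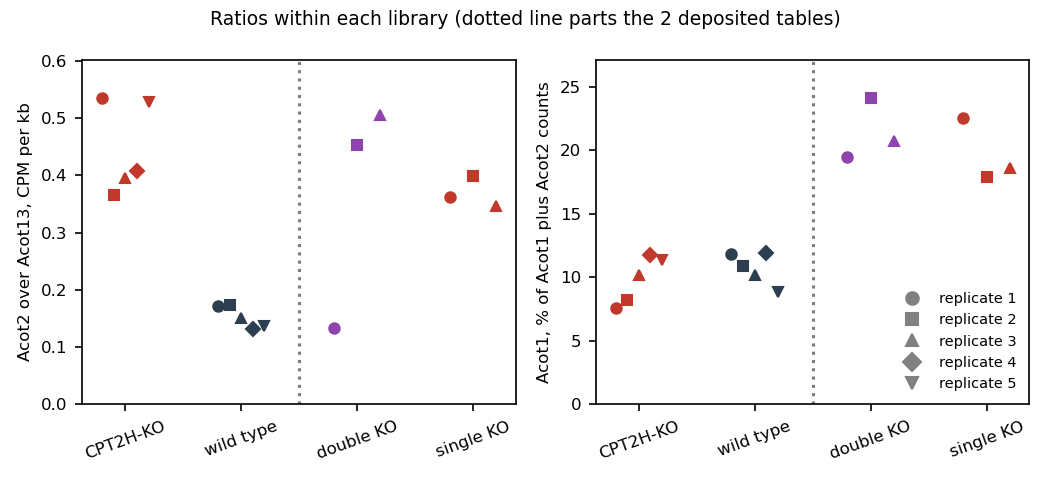
Left, ratio of Acot2 to Acot13 in CPM per kb in each library; right, Acot1 as a percentage of Acot1 plus Acot2 counts; symbols stand for replicates and the dotted line parts the 2 tables, which are not compared. The ratio averages 0.447 in CPT2H-KO and 0.153 in wild type hearts with no overlap, and double KO replicate 1, at 0.134, lies apart from the other 2 double KO hearts.

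Acot1 and Acot2 sit in a run of thioesterase genes on chromosome 12 in the order Acot2, Acot1, Acot4, Acot3, Acot5 and Acot6. Of the other genes of that run, Acot3 and Acot4, known as peroxisomal enzymes, and Acot6 had rows in the first table, and all 3 were called higher in CPT2H-KO hearts. Acot3 had 1.80, 1.31, 2.73, 2.74 and 2.02 CPM in CPT2H-KO hearts, against 0.558, 0.440, 0.658, 0.649 and 0.347 CPM in wild type hearts, and the groups lay apart. The log2 fold change of Acot3 was 1.97 with an SE of 0.25 (adjusted p = 2.44e-04, edgeR's quasi-likelihood test). Acot4 was low, at 0.386 to 0.719 CPM in CPT2H-KO and 0.0912 to 0.395 CPM in wild type hearts, and its groups overlapped slightly (log2 fold change 1.33, adjusted p = 0.0154). Acot6 differed least, at 0.42 (adjusted p = 0.0329). Dnal1, the next gene past Acot6, was at 0.05 (adjusted p = 0.751).

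All 5 measured genes of the run were thus called higher, none of the 5 members elsewhere was, and 16.7% of all genes tested were; the difference between run and rest was not tested. The counts of these neighbours are not wholly separate: 7.69% of 50-base windows of the Acot1 transcript occur in Acot3 and 4.27% in Acot6, and Acot3 and Acot4 overlap both Gm49366 on their own strand and 4732463B04Rik on the opposite strand. Acot5 and the flanking genes Riox1, Heatr4 and Pnma1 had no rows under these symbols in the first table. In the second table Acot5, Heatr4 and Pnma1 did not pass the filter on low counts. Riox1 was not called there (log2 fold change −0.19, adjusted p = 0.923, edgeR's quasi-likelihood test).

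**Figure D4:**
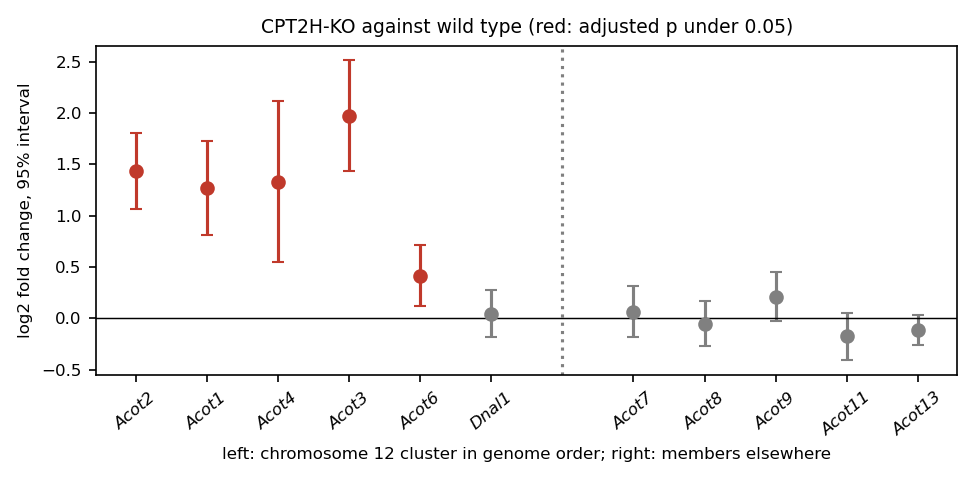
Log2 fold change with its 95% interval, CPT2H-KO against wild type, for the measured genes of the chromosome 12 run in genome order with the flanking gene Dnal1 (left of the dotted line) and for the 5 members elsewhere (right); red points have an adjusted p under 0.05. The run reaches from 0.42 at Acot6 to 1.97 at Acot3, and the members elsewhere lie between −0.17 and 0.21.

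Since Acot1 and Acot2 moved together, their upstream sequences are shown, taken from RefSeq (GRCm38.p6), which matched 6 of the 7 members, all but Acot13. The Acot1 stretch is chr12:84009252-84009489 and the Acot2 stretch is chr12:83987611-83987860, both on the plus strand.
Acot1: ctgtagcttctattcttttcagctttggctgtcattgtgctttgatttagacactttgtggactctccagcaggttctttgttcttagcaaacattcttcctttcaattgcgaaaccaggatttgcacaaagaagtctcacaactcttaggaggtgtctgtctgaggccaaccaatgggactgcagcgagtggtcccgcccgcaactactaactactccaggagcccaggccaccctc
Acot2: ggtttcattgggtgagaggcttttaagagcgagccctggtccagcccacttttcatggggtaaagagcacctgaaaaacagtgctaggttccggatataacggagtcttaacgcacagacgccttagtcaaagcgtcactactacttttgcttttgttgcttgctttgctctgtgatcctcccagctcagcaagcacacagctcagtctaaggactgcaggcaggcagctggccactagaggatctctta
Unlike the coding sequences, the promoter stretches have little in common, with 55.7% identity over 221 aligned bases. Both strands were searched, over 250 bases, for the half-site of PPAR response elements (AGGTCA), for that half-site repeated after 1 base, and for the core TGATGNAA that ATF4 and C/EBP proteins bind together. The 3 motifs occur in 14.0%, 0.0335% and 3.45% of 32851 promoters of that length, and each copy of the repeat also counts as a half-site. None of these letters stands in the Acot1 or Acot2 window or in that of another matched member. Of the neighbours in the run, Acot4 and Acot5 hold the half-site and Acot3 does not, while Acot6 was not matched and so not searched.

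Over the 10 libraries of the first table, the log2 CPM of Acot1 and Acot2 had a Pearson r of 0.95, as a description, since the libraries fall into 2 genotypes and the genes share sequence. Outside the family, the closest to Acot1 were Dbi (r = 0.96), Wnt9a (0.96), Coq3 (0.95) and Phb2 (0.95). Dbi encodes the acyl-CoA binding protein, which carries long-chain acyl-CoA in the cytosol, Coq3 an enzyme of coenzyme Q synthesis and Phb2 a prohibitin of the mitochondrial inner membrane. Dbi averaged 51.3 ± 5.04 CPM in CPT2H-KO and 37.9 ± 4.38 CPM in wild type hearts (SD, n = 5 each), a log2 fold change of 0.44. The closest to Acot2 were Impa2 (0.98), Pdhx (0.97), Hspa4 (0.97) and Rsph3a (0.97), where Pdhx encodes a subunit of the pyruvate dehydrogenase complex and Hspa4 a chaperone. Impa2, an inositol monophosphatase, averaged 12.7 ± 0.896 CPM in CPT2H-KO and 6.67 ± 0.397 CPM in wild type hearts, a log2 fold change of 0.93. All 8 were called higher in CPT2H-KO hearts, which follows from their choice by likeness to genes that separate the genotypes and is no further result.

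Genes that work on the same substrates were called in both directions, as were genes in general, with 16.7% of all genes tested higher, 17% lower and 33.7% called in all. Among other thioesterases 3 of 9 tested rose, 1 fell and 5 did not pass. Those that rose were Acot3, Acot4 and Acot6, the genes of the chromosome 12 run already given above. The thioesterase that fell was Them6, at 1.85 ± 0.333 CPM in CPT2H-KO and 3.08 ± 0.176 CPM in wild type hearts (log2 fold change −0.74, adjusted p = 0.00184, edgeR's quasi-likelihood test). Of 12 acyl-CoA synthetases, which make the substrate of the thioesterases, 3 rose, 3 fell and 6 did not pass, with a median log2 fold change of −0.04 against −0.01 for all genes tested. Acsf2, a mitochondrial medium-chain synthetase, stood out at 44.8 ± 12.2 CPM in CPT2H-KO and 5.29 ± 0.697 CPM in wild type hearts (log2 fold change 3.08), and Acsl3 rose by 1.06 on the log2 scale. Acsl6 fell by 1.59 and Acss2, the acetyl-CoA synthetase, by 0.39 on the log2 scale.

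Of 14 genes of coenzyme A synthesis and breakdown, 2 rose and 2 fell, with a median of −0.13, and the called share was near that of all genes. The nudix hydrolases Nudt7 and Nudt8, which cleave coenzyme A in peroxisomes and mitochondria, fell by 0.31 and 0.44 on the log2 scale. Slc25a42, the mitochondrial coenzyme A carrier, rose by 0.63 and Enpp1 by 0.80 on the same scale.

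Of 27 PPAR targets and lipid handling genes, a list to which Acot1 and Acot2 would belong by background but which was counted without them, 13 rose, 1 fell and 13 did not pass (median 0.29), beside 16.7% of all genes higher and 17% lower. The gene that fell was Acadm. Among the called genes, Acadl, Hadha, Cpt1b and Acadm stand both in this list and in that of beta-oxidation. Pdk4, the kinase that shuts pyruvate dehydrogenase, reached 1372 ± 272 CPM in CPT2H-KO, against 197 ± 41.4 CPM in wild type hearts (log2 fold change 2.80). Cpt1b, the outer-membrane carnitine palmitoyltransferase of muscle, and Acadl, a long-chain acyl-CoA dehydrogenase, rose by 0.56 and 0.76 on the log2 scale. Of 22 genes of mitochondrial beta-oxidation 5 rose, 3 fell and 14 did not pass (median 0.08), a called share near the 33.7% of all genes, with the enoyl-CoA hydratase Echs1 at −0.62 and the medium-chain dehydrogenase Acadm at −0.49. Of 19 peroxisomal lipid genes 3 rose, 5 fell and 11 did not pass (median −0.09), again beside 16.7% of all genes higher and 17% lower. The acyl-CoA transporter Abcd2 was at −1.67, Phyh at −0.51 and Scp2 at −0.44, while Pex11a was at 0.78.

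Adding the USP30 deletion to the CPT2 deletion gave no called difference in any of the 7 members. Among all 12997 genes tested 0 were called (0%) by edgeR's quasi-likelihood test, while 942 (7.25%) had an unadjusted p under 0.05, and DESeq2 called 124 and limma-voom 0. No member's groups separated, against 11.8% of all genes tested, and the 95% intervals of the members reach from −0.59 to 0.98. The double KO hearts were the more variable: replicate 1 had the lowest Acot1, Acot2, Acot7 and Acot11 and the highest Acot8, Acot9 and Acot13 of its group, so log2 fold changes are given with and without it.

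Acot2 had 165, 385 and 350.3 CPM in double KO replicates 1 to 3, against 297, 307 and 278 CPM in single KO replicates 1 to 3. The double KO hearts lay on both sides of the narrow single KO range. The log2 fold change was 0.03 (SE 0.27, 95% interval −0.58 to 0.64, adjusted p = 0.992, edgeR's quasi-likelihood test), and 0.32 (adjusted p = 0.402) without double KO replicate 1. Acot1 put the double KO hearts in the same order as Acot2, with 39.9, 122 and 91.7 CPM in double KO hearts, against 86.5, 67.0 and 63.4 CPM in single KO hearts. Its log2 fold change was 0.23 (SE 0.33, 95% interval −0.52 to 0.98, adjusted p = 0.937), and 0.56 (adjusted p = 0.224) without that heart.

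Acot13 had 418, 288 and 234.8 CPM in double KO hearts, against 277, 261 and 272 CPM in single KO hearts. Replicate 1 was thus the highest of all 6 hearts for Acot13 and the lowest for Acot2. The log2 fold change of Acot13 was 0.22 (95% interval −0.25 to 0.68, adjusted p = 0.890) and −0.05 without replicate 1. Per kb, the ratio of Acot2 to Acot13 was 0.134, 0.453 and 0.505 in double KO hearts, against 0.363, 0.399 and 0.347 in single KO hearts.

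Myl7 also varied among the double KO hearts, with 1.49 CPM in replicate 1, 102 CPM in replicate 2 and 425 CPM in replicate 3, whereas no single KO heart exceeded 0.458 CPM. A further fit in edgeR took the mean log2 level of the atrial transcripts Myl7, Myl4 and Sln as a covariate. Its log2 fold changes were −0.91 for Acot2 (adjusted p = 0.109) and −0.89 for Acot1 (adjusted p = 0.200, quasi-likelihood test), again not called but of the opposite sign. With the same covariate Acot13 was at 0.75 (adjusted p = 0.0898), Acot11 at −0.55 and Acot8 at 0.45, not called either. The covariate was 0.0417 to 0.371 in single KO and 1.13 to 8.53 in double KO hearts. It did not overlap between the genotypes, so in this fit covariate and genotype cannot be cleanly told apart. All 6 atrial markers of the wider list, Nppa among them, had rows, and none was at 0 in every library. Their sum, which is not the covariate, was 1319 to 7472 CPM in double KO and 1203 to 2752 CPM in single KO hearts.

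**Figure D5:**
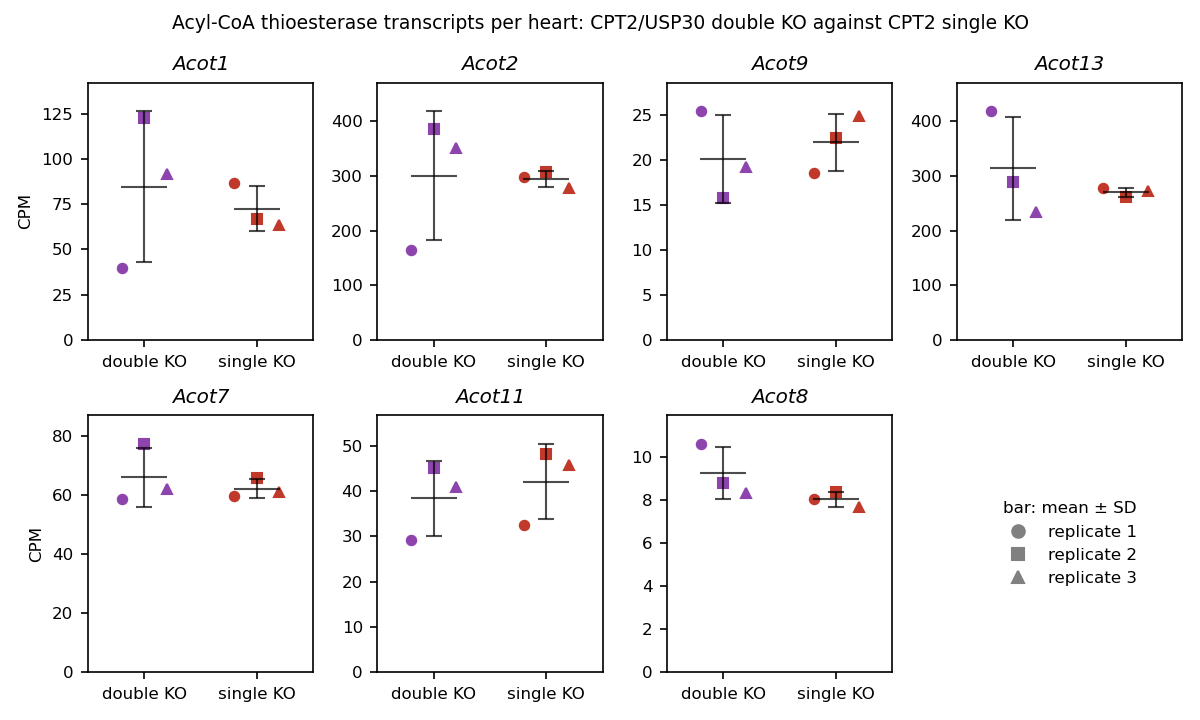
CPM of each member in each heart of the second table, with double KO on the left and single KO on the right of every panel; symbols stand for replicates, horizontal bars for means and whiskers for SD (n = 3 each). The groups overlap in all 7 panels, and double KO replicate 1 (circle) is the lowest heart for Acot2 at 165 CPM and the highest for Acot13 at 418 CPM.

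The less abundant members also overlapped. Acot7 had 58.6, 77.4 and 62.0 CPM in double KO and 59.9, 65.8 and 61.0 CPM in single KO hearts. Acot11 had 29.2, 45.05 and 40.9 CPM in double KO and 32.5, 48.1 and 45.6 CPM in single KO hearts. Acot9 had 25.5, 15.8 and 19.3 CPM in double KO and 18.6, 22.5 and 24.9 CPM in single KO hearts. For Acot7 and Acot9 the single KO range lay inside that of the double KO, whereas for Acot11 single KO replicates 2 and 3 exceeded every double KO heart. Acot8 had 10.6, 8.78 and 8.34 CPM in double KO and 8.05, 8.39 and 7.70 CPM in single KO hearts. The log2 fold changes were 0.08 for Acot7, −0.13 for Acot11, −0.12 for Acot9 and 0.20 for Acot8, none with an adjusted p below 0.886 in edgeR's quasi-likelihood test. Without double KO replicate 1 they were 0.16 for Acot7, 0.029 for Acot11, −0.33 for Acot9 and 0.087 for Acot8, none of them called, and the sign of Acot11 turned.

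The order per kb in the second table was Acot13, Acot2, Acot7, Acot1, Acot9, Acot11 and Acot8 in both groups by their means. Acot13 averaged 422 ± 127 CPM per kb in double KO and 363 ± 11.1 CPM per kb in single KO hearts, and Acot2 averaged 137 ± 53.8 and 134 ± 6.71 CPM per kb (SD, n = 3 each). In double KO hearts each member from Acot7 to Acot11 overlapped the next in that order, whereas in single KO hearts no neighbours in the order overlapped. Acot1 took 21.4 ± 2.40% of the joint Acot1 and Acot2 counts in double KO and 19.7 ± 2.52% in single KO hearts, a difference of 1.76 points, 0.43 to 3.21 with 1 library left out (two-sided exact permutation test, p = 0.5, where the smallest possible p is 0.1). None of the genes in the lists of other thioesterases, synthetases, coenzyme A metabolism, PPAR targets, beta-oxidation or peroxisomal lipid metabolism was called in this comparison.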

How the data were processed

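Total RNA of hearts was made into stranded libraries after ribosomal RNA depletion, per the labels' protocols. The authors deposited raw counts per gene in 2 tables, one for each comparison, made from the mm10 (GRCm38) build, with bcl2fastq, HISAT2 and DESeq2 1.42.0 named in the submitters' processing notes. Not given in the sources used here are the counting program, its use of strand and its treatment of reads that match several genes.

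From the deposited counts, each table was fitted alone with edgeR 4.0.16 (R 4.3.3): rows of low count were filtered, libraries were scaled by TMM, and genotypes were compared with the quasi-likelihood test, with p-values adjusted by Benjamini-Hochberg over all genes tested and a threshold of 0.05. Replicates are labelled as biological, and the labels do not say that a number marks a shared litter, batch or day. CPM are counts scaled to the library total times its TMM factor; CPM per kb use merged GENCODE exons of GRCm38. The scripts were tested on simulated data. Named genes are the 7 members, Cpt2, Usp30, at most 4 genes of each list with the smallest p, and the 4 genes most correlated with Acot1 or Acot2; genes of the chromosome 12 run were named for their position. Genes, lists and members were chosen with earlier results of these data known. Alternatives were RLE scaling, library totals, no filter, removal of mitochondrial rows, DESeq2 1.42.0, limma-voom 3.58.1, a replicate block, a term for Y-linked transcripts, an atrial covariate, a summed Acot1 and Acot2 row, and leaving out each library. The removal of mitochondrial rows, which also covered ribosomal RNA rows, took out 0 rows of the second table, so that fit repeats the main one there. The atrial covariate was the mean log2 CPM of Myl7, Myl4 and Sln.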

Additional observations from a re-analysis of the deposited data

How the results depend on the processing

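In CPT2H-KO against wild type, Acot1 and Acot2 kept direction and call in all 21 alternatives, with log2 fold changes of 0.99 to 1.63 and 1.16 to 1.73. Scaling by library totals called 4 of 7 members in place of 2, and put Acot7 at −0.20, Acot9 at −0.060 and Usp30 at −0.085. Calls over all genes were 2856 with the atrial covariate, 3066 in libraries with Y-linked transcripts, and 3682 to 4787 with 1 library left out; Acot7 was −0.045 in the Y-linked set and −0.016 to 0.12 with 1 library left out. Acot9 was 0.38 with the atrial covariate (adjusted p = 0.0370; range over alternatives 0.0370 to 0.810) and 0.026 without both CPT2H-KO libraries with atrial transcripts (adjusted p = 0.810). In double KO against single KO, calls over all genes were 124 with DESeq2, 25 with the atrial covariate, and 0 to 114 with 1 library left out, 114 of them without double KO replicate 1 and 4 without single KO replicate 3. Usp30 passed at −1.18 by DESeq2 (adjusted p = 2.39e-04) and at −1.23 without double KO replicate 1 (adjusted p = 0.0218; range over alternatives 2.39e-04 to 0.671), and was −1.26 to −1.03 with 1 library left out. With the atrial covariate, Acot1 was −0.89, Acot2 −0.91, their summed row −0.90, Acot7 −0.047, Acot9 0.21, Acot13 0.75, Acot11 −0.55 and Acot8 0.45, none called, and Acot2 was −0.062 by limma-voom. That covariate did not overlap between double KO and single KO hearts. With 1 library left out, Acot1 ran from −0.14 to 0.56, Acot2 from −0.19 to 0.32, the summed row from −0.18 to 0.37, Acot7 from −0.048 to 0.16, Acot9 from −0.33 to 0.023, Acot11 from −0.31 to 0.029, Acot13 from −0.048 to 0.38 and Cpt2 from −0.018 to 0.066. The cause of these changes was not tested. Depth limits Acot4, which had at most 0.719 CPM in the first table.

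Same-numbered libraries did not deviate together (correlations of −0.05 to 0.26 in the first table and −0.20 to 0.18 in the second; 1 of 5 and 1 of 3 numbers correlated best with themselves). With the replicate block, 2 members were called in the first comparison, and in the second 1 gene was called over all genes, Acot2 was −0.057 and the summed row −0.023.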

Other observations

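Of the genes of the chromosome 12 run that did not belong to the 7 members, Acot3 had 6.14, 8.61 and 7.37 CPM in double KO hearts, against 8.21, 11.2 and 9.99 CPM in single KO hearts, with overlapping groups and a log2 fold change of −0.41 (adjusted p = 0.764, edgeR's quasi-likelihood test). Acot6 had 0.830, 3.31 and 4.13 CPM in double KO hearts, against 2.60, 2.85 and 3.66 CPM in single KO hearts, and double KO replicate 1 was again the lowest.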
